A study of Homo sapiens with 12 samples.

Results

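NEAT1 and MALAT1 are 2 long noncoding RNAs that stay in the nucleus and should carry no translating ribosomes, and their reads in ribosome footprint libraries can serve as a gauge of background. Both were found by symbol after the gene identifiers of the count table were matched to GENCODE, and they were 2 of 12357 genes in the table, of which 752 were long noncoding RNAs and 10872 were protein-coding. Footprints were taken from GM18505, GM19193 and GM19204, 3 wild-type lines of human B cells kept in culture by Epstein-Barr virus (lymphoblastoid lines). In each line 1 control culture was given water and 1 was given sodium arsenite, an oxidative stressor, for 30 min. Each of the 6 cultures was sequenced as a T and a U library, which the study describes as batches of library preparation. In the study 1 of the 2 libraries of a sample was treated with CRISPR/Cas9 to remove ribosomal RNA. Its text does not say whether that was T or U. An effect of that step and one of the preparation round cannot be told apart. The cell line was the replicate (n = 3 per condition), and the 2 libraries of a culture were technical repeats. The study compared the conditions to measure a stress response that moves most footprints at once, for which 16 spike-in oligomers were added in 3 pools, 1 pool per culture. The oligomers were added per mass of digested RNA, so a change per cell and a change in the amount of RNA per cell cannot be told apart.

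In ribosome profiling, RNase removes RNA that no ribosome shields, and the protected fragments are sequenced. A fragment shielded by another protein, by a stable fold or by a large particle that passes the same column can be counted as well. NEAT1 is the scaffold of paraspeckles, nuclear bodies built around its long form by proteins such as NONO and SFPQ, and its short form ends at an early polyadenylation site. MALAT1 gathers in nuclear speckles, which store splicing factors. The long form of NEAT1 and MALAT1 do not end in an added poly(A) tail. RNase P cuts each RNA just upstream of a tRNA-like small RNA, and the genome-encoded end left behind folds its A-rich tail into a triple helix with U-rich stretches. No RNA-seq of the same cultures was analysed here, so a footprint value does not separate the amount of RNA from what covered it.

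Both genes lie on the plus strand of chromosome 11 in GRCh38 and are annotated as lncRNA, with no coding region and no UTR. NEAT1 (ENSG00000245532) spans chr11:65422774-65445540 with 9 annotated transcripts, of which the longest is a single exon of 22743 nt and the 8 others lie within the first 3740 nt. MALAT1 (ENSG00000251562) spans chr11:65497640-65508073 with 66 annotated transcripts, of which the longest is a single exon of 10434 nt. The merged exons of NEAT1 cover 22767 nt and those of MALAT1 10434 nt. TALAM1 and a further antisense transcript overlap MALAT1, and whether the counting used strand is not given in the sources used here, so reads of the 2 strands cannot be told apart at MALAT1. Small annotated RNAs inside both genes, MIR612 in NEAT1 among them, had no entry of their own in the count table.

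The last 120 nt before each RNase P cut are shown because they are what makes the RNAs stable without a tail. The MALAT1 stretch is chr11:65505997-65506116 and the NEAT1 stretch is chr11:65445421-65445540, both on the plus strand, and capitals mark runs of at least 4 T or at least 4 A.
MALAT1 end: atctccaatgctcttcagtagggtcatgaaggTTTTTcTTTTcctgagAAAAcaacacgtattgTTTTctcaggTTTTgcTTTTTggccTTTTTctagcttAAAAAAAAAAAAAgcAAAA
NEAT1 end: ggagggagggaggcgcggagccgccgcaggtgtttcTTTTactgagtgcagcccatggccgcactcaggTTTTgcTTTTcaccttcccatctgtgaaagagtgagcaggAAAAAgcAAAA
The MALAT1 stretch holds 6 T runs and 3 A runs, the longest of them 13 A, and 33.33% of its bases are G or C. The NEAT1 stretch holds 3 T runs and 2 A runs, the longest of them 5 A, with 55% G or C. The runs TTTTgcTTTT and the final gcAAAA stand in both. The study trimmed poly(A) from its reads, and any footprint that ends in these A runs would have lost them before mapping.

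The tRNA-like small RNAs that follow directly are shown because reads that fall in them could come from the cleaved small RNA, which for MALAT1 is cytoplasmic. They lie at chr11:65506117-65506173 for MALAT1, inside the counted exon, and at chr11:65445541-65445598 for NEAT1, directly beyond the annotated end of the gene.
MALAT1 small RNA: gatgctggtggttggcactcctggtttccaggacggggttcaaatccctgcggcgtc
NEAT1 small RNA: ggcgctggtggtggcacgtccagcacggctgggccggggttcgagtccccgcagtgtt
They share 40 of 59 aligned positions (67.8%), and 61.4% and 72.41% of their bases are G or C. Counts are per gene, so the reads in the MALAT1 small RNA could not be taken out of the MALAT1 count.

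Both RNAs hold short reading frames, and the first of at least 10 codons is shown for each. Of the frames that long, a ribosome scanning from the 5′ end would reach it first. Shorter frames before it were not analysed here. Frames were read in the longest transcript from an AUG to the first stop in frame and kept from 10 codons up. MALAT1 holds 72 such frames (6.90 per kb), and its first is also its longest, with 70 codons at positions 618 to 830 counted from the 5′ end. NEAT1 holds 191 (8.40 per kb), the first with 71 codons at positions 91 to 306 and the longest with 137 codons at positions 7362 to 7775. Capitals mark the start and stop codons.
MALAT1 first frame: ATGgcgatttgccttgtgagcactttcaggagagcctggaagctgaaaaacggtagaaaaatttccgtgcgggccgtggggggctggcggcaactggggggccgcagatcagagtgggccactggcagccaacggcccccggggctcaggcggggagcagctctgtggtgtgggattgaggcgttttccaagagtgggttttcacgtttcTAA
NEAT1 first frame: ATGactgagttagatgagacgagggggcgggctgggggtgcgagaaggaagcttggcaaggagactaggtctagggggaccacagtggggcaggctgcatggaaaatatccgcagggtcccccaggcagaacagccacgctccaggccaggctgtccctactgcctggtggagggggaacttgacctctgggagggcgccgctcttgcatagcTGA
Position within the gene is lost in a count per gene, and whether reads fell in these frames was not analysed here.

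MALAT1 gave 526 to 1765 counts per library, and NEAT1 gave 27 to 158. In the control libraries, as T and then U, NEAT1 had 39 and 88 counts in GM18505, 27 and 59 in GM19193, and 98 and 84 in GM19204. Under arsenite it had 148 and 124 counts in GM18505, 53 and 151 in GM19193, and 132 and 158 in GM19204. Raw NEAT1 counts of the conditions overlapped between libraries, although the arsenite libraries were shallower, with 637177 to 1730558 gene counts against 1979496 to 4112703 in control. MALAT1 had 630 and 1169 control counts in GM18505, 526 and 884 in GM19193, and 822 and 914 in GM19204. Under arsenite it had 790 and 784 counts in GM18505, 697 and 1765 in GM19193, and 1213 and 1185 in GM19204. With T and U summed, NEAT1 rested on 86 to 182 counts per control culture and on at most 290 per arsenite culture, and MALAT1 on 1410 to 1799 and 1574 to 2462.

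As a share of the gene counts, given as counts per 1000000 (CPM), both RNAs were higher under arsenite in every cell line. NEAT1 took 20.2 CPM in the GM18505 control (95% Wilson interval 17.0 to 24.0), 16.8 in GM19193 (13.6 to 20.8) and 28.1 in GM19204 (24.3 to 32.5). Under arsenite it took 205.1 in GM18505 (182.1 to 231.0), 83.3 in GM19193 (72.6 to 95.5) and 123.9 in GM19204 (110.4 to 139.0). The intervals, which cover counting error only, set the conditions apart in each line. The mean NEAT1 share was 21.7 ± 5.81 CPM (SD, n = 3) in control and 137.4 ± 62.0 under arsenite, a ratio of 6.33.

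MALAT1 took 286.3 CPM in the GM18505 control, 275.7 in GM19193 and 268.4 in GM19204, and 1187, 1005 and 1024 under arsenite in the same order. The 3 control values spanned 17.9 CPM, which is less than the width of their own counting intervals, from 25.3 to 28.8. The mean was 276.8 ± 8.98 (SD, n = 3) in control and 1072 ± 99.7 under arsenite, a ratio of 3.87. For both RNAs the 3 arsenite cultures lay above the 3 controls, and the exact two-sided permutation test gave p = 0.1, the smallest that 3 against 3 samples allow. A share rises where other genes fall, and the change on the spike-in scale is given separately.

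**Figure D1:**
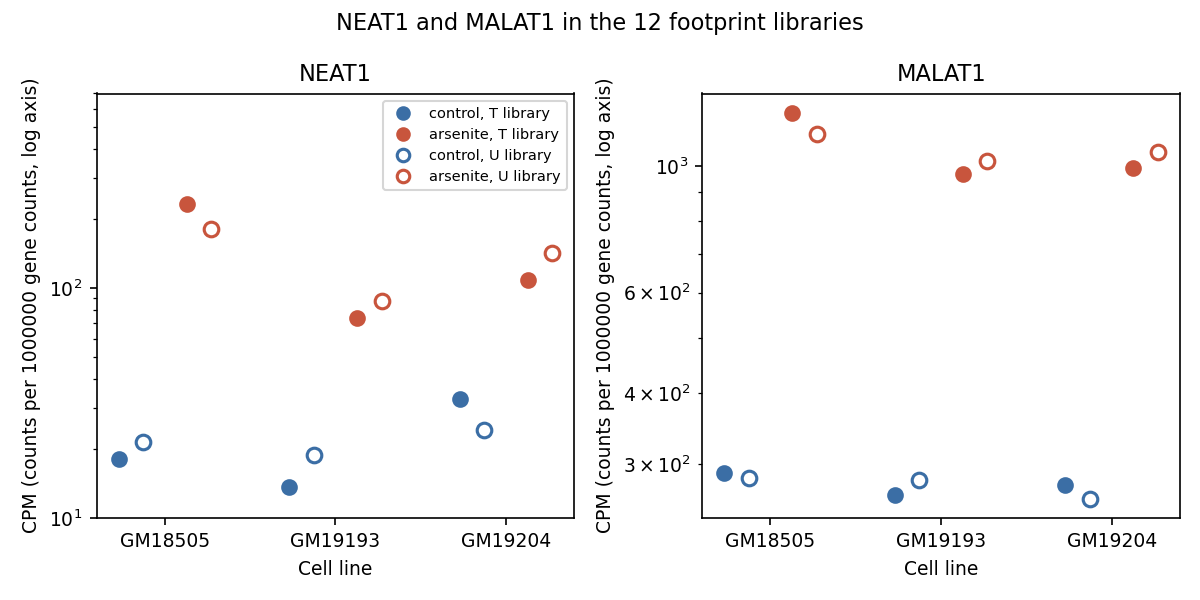
Counts per 1000000 gene counts (CPM, log axis) of NEAT1 and MALAT1 in each library, by cell line, with filled points for T and open points for U libraries. The arsenite libraries lie above the control libraries of the same line for both RNAs, with NEAT1 from 73.8 to 232.3 under arsenite against 13.6 to 33.0 in control.

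Per length, MALAT1 stood among the better covered genes and NEAT1 among the poorly covered ones. Counts were divided by gene counts and by merged exon length, giving CPM per kb. In control cultures MALAT1 had 26.5 ± 0.861 (SD, n = 3) CPM per kb, 5.46 ± 0.245 times the median protein-coding gene of the same sample. That level exceeded 86.2% ± 0.570 of the 10872 protein-coding genes. NEAT1 had 0.954 ± 0.255, which was 0.196 ± 0.0534 times the median protein-coding gene and exceeded 16.6% ± 4.24 of them. Within each sample MALAT1 was the more covered of the pair per length.

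Under arsenite both moved up in this order. MALAT1 reached 102.8 ± 9.56 CPM per kb (SD, n = 3), 24.3 ± 3.63 times the median protein-coding gene, and exceeded 97.8% ± 0.227 of them. NEAT1 reached 6.04 ± 2.72, 1.44 ± 0.708 times that median, and exceeded 72.6% of protein-coding genes in GM18505, 59.8% in GM19204 and 41.6% in GM19193. The median protein-coding gene lay between 4.78 and 4.95 CPM per kb in control and between 3.97 and 4.72 under arsenite. By count, MALAT1 ranked from 568 to 636 among all genes in control and from 53 to 70 under arsenite, and NEAT1 from 5574 to 7160 and from 572 to 1970.

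The NEAT1 level depends on which form is taken to be covered. Were all of its reads in the 3740 nt that hold the 8 shorter transcripts, NEAT1 would have 5.81 ± 1.55 CPM per kb (SD, n = 3) in control and 36.7 ± 16.6 under arsenite, above 53.8% ± 6.21 and 92.1% ± 4.16 of protein-coding genes. This region was chosen after the values were seen and bounds the level there from above. MALAT1 remained above this bound in every sample.

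Against other long noncoding RNAs, MALAT1 stood at the top and NEAT1 in the middle of the control levels. MALAT1 had 33.1 ± 5.93 times the median long noncoding RNA per length in control (SD, n = 3) and 53.4 ± 8.06 times under arsenite, with no overlap between the conditions. By mean count it was exceeded by 5 of the 752. NEAT1 had 1.24 ± 0.583 times that median in control, below it in GM19193 alone, and 3.18 times under arsenite, with values from 1.74 to 4.90, and here the conditions overlapped (exact permutation test, p = 0.2).

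**Figure D2:**
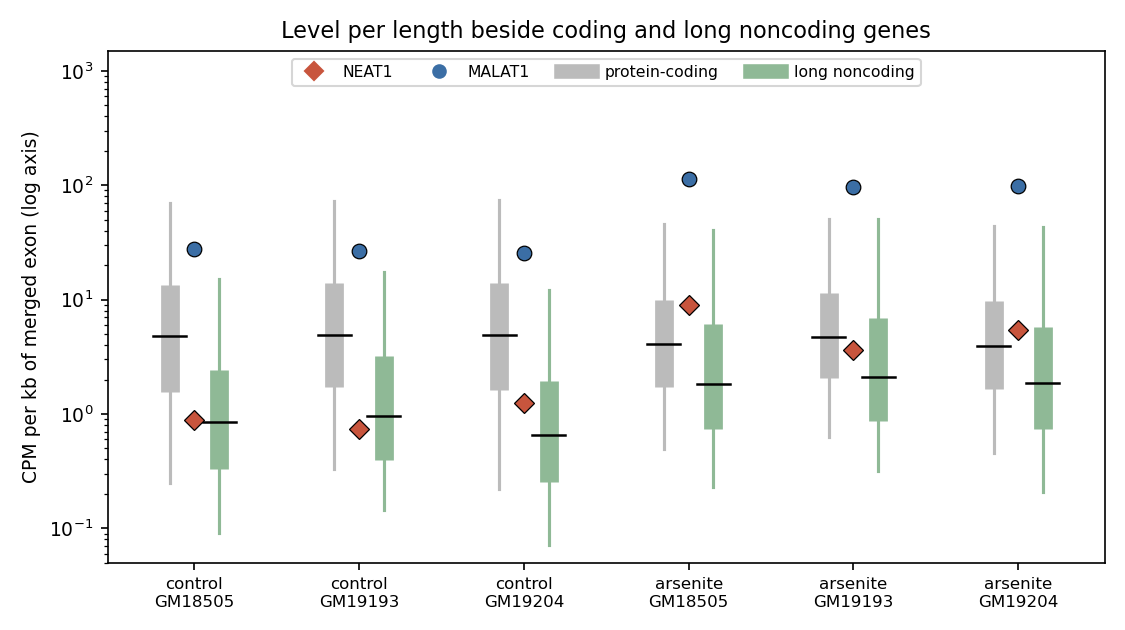
CPM per kb (log axis, merged exon length) of NEAT1 and MALAT1 in each culture, beside protein-coding genes and long noncoding RNAs, with thick bars from the 25th to the 75th percentile, thin lines from the 5th to the 95th and black ticks at the median. MALAT1 lies above the 75th percentile of protein-coding genes in all 6 cultures, and NEAT1 lies below the 25th in control and between the 25th and 75th under arsenite.

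On the spike-in scale NEAT1 rose under arsenite, MALAT1 did not pass the test, and most other genes fell. The scale compares the log2 count of each oligomer with the log2 of its nominal concentration and averages the difference over 7 oligomers, those that no library counted fewer than 10 times. Which mix of oligomers each pool held was read from the study's design drawing and methods, and every fold change on this scale rests on that reading. With it, oligomer counts and concentrations had a rank correlation of 0.81 to 0.92 in each of the 12 libraries. Fold changes came from the quasi-likelihood test of edgeR with cell line and treatment as terms, and p-values were adjusted by Benjamini-Hochberg over 12357 genes, with a threshold of 0.05. NEAT1 counts divided by this scale were 107.1 in GM18505, 102.0 in GM19193 and 196.5 in GM19204 in control, and 320.0, 210.7 and 220.9 under arsenite. All 3 arsenite values lay above the highest control value. The log2 fold change was 0.93 (SE 0.39, adjusted p = 0.025), a direction that 1.12% of all genes were called in, while 74.1% were called lower (138 and 9162 genes) and the median gene changed by −1.79. With TMM scaling, the same counts gave 3433 genes higher and 3290 lower. Of all genes, 98.8% had a lower fold change than NEAT1. Among the 752 long noncoding RNAs, 29 were called higher and 138 lower on the spike-in scale.

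The NEAT1 call rested on GM18505. Without that line the log2 fold change was 0.60 (edgeR adjusted p = 0.52), against 0.86 (adjusted p = 0.0017) without GM19193 and 1.32 (adjusted p = 0.013) without GM19204. Without GM18505, 58 genes were called higher in place of 138. The call was also lost with T libraries alone, at 0.90 (adjusted p = 0.070), and with no scaling at all, at 1.0 (adjusted p = 0.073).

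MALAT1 counts on the same scale were 1517 in GM18505, 1673 in GM19193 and 1874 in GM19204 in control, and 1852, 2543 and 1827 under arsenite. The conditions overlapped, since the GM19204 control lay above the arsenite cultures of GM18505 and GM19204. The log2 fold change was 0.28 (SE 0.36, edgeR adjusted p = 0.48), and 94.6% of all genes had a lower one. Among the alternatives with spike-in information, MALAT1 passed after RUVg, a factor method that takes the oligomers as controls. It had 0.36 (SE 0.13, limma adjusted p = 0.020) there. That fit took the 12 libraries as separate samples, so T and U of a culture counted as independent. With cultures summed, all 16 oligomers in the scale gave 0.40 (SE 0.31, edgeR adjusted p = 0.24). DESeq2 on the spike-in scale gave 0.28 (SE 0.27, adjusted p = 0.36).

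The size of the change differed between lines. The log2 change of NEAT1 came to 1.58 in GM18505, to 1.05 in GM19193 and to 0.17 in GM19204, with a standard error of the spike-in scale of 0.14, 0.18 and 0.16. For MALAT1 it was 0.29, 0.60 and −0.04 in the same order. NEAT1 in GM18505 and GM19193, and MALAT1 in GM18505 and GM19193, moved by more than the error of the scale. In GM19204 the change of NEAT1 was about the size of that error, and that of MALAT1 was smaller. With 1 culture per line and condition, the difference between lines in the response could not be tested. The edgeR fits take the scale as known, and its error is not part of their p-values.

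**Figure D3:**
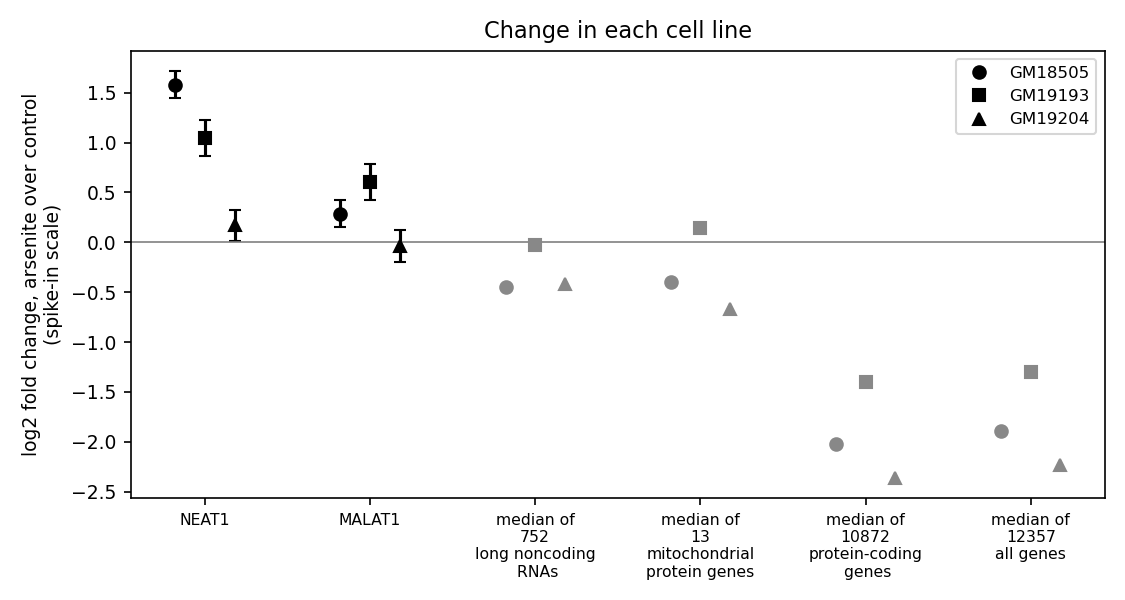
Log2 fold change from control to arsenite on the spike-in scale in each cell line, for NEAT1, MALAT1 and the medians of 4 gene sets, with bars for the standard error of the spike-in scale. NEAT1 lies between 0.17 and 1.58 and MALAT1 between −0.04 and 0.60, while the median of all genes lies between −2.23 and −1.30.

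The distance between these RNAs and other genes needs no scale, because any scale moves all genes of a culture alike. NEAT1 lay above the median of all genes by 3.47 in GM18505, 2.34 in GM19193 and 2.40 in GM19204 on the log2 scale. MALAT1 lay above it by 2.18, 1.90 and 2.19. In the edgeR fit with TMM, which measures change relative to other genes, NEAT1 rose by 2.76 (SE 0.22, adjusted p = 7.1e-05) and MALAT1 by 2.10 (SE 0.098, adjusted p = 3.1e-05). By that scaling 27.8% of all genes were called higher and 26.6% lower, and the median gene stood at 0.03. Both calls held when any 1 line was left out.

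Against other long noncoding RNAs the distance was smaller than against mRNAs. The median long noncoding RNA changed by −0.26 in the fit, the median protein-coding gene by −1.91 and the median of 13 mitochondrially encoded protein genes, which mitochondrial ribosomes translate, by −0.29. NEAT1 exceeded the median long noncoding RNA by 2.03 in GM18505, 1.08 in GM19193 and 0.59 in GM19204. MALAT1 exceeded it by 0.74, 0.63 and 0.38. The exact sign-flip test over 3 lines cannot go below p = 0.25, which both reached. Of the 752 long noncoding RNAs, 29 had a larger fold change than NEAT1 and 154 a larger one than MALAT1. Among the 57 with a mean of at least 100 counts per culture, 4 exceeded NEAT1 and 18 exceeded MALAT1.

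**Figure D4:**
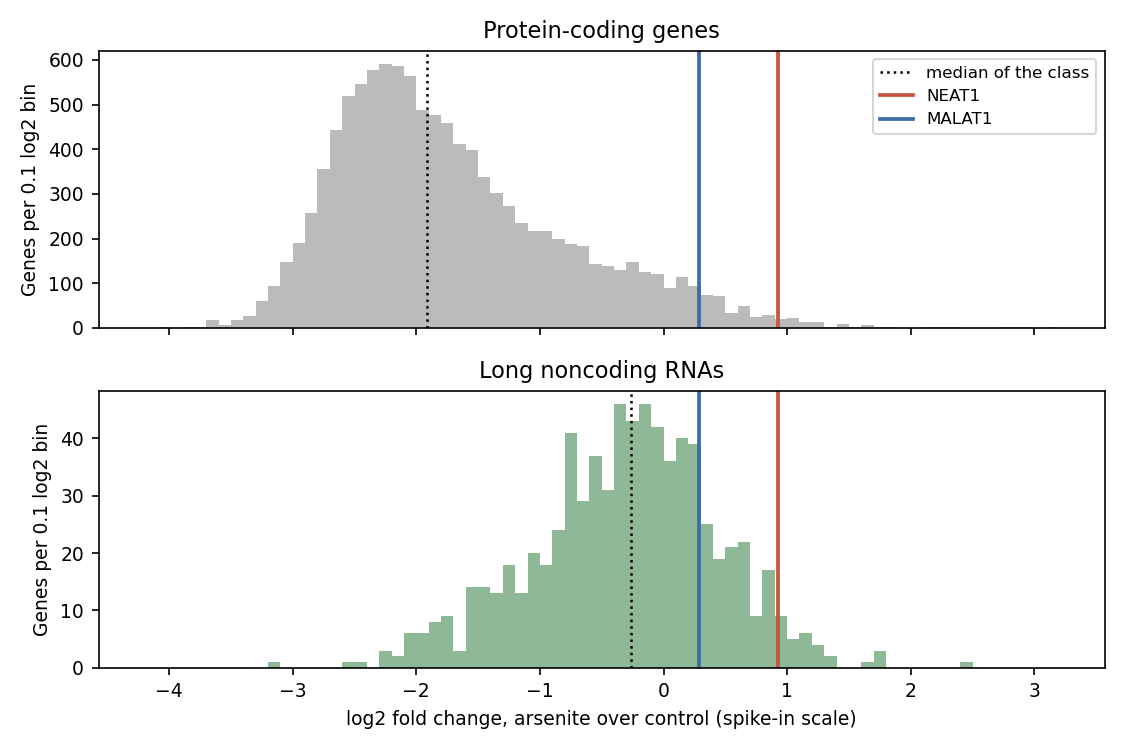
Number of genes per 0.1 log2 bin of the fold change on the spike-in scale, for protein-coding genes (upper) and long noncoding RNAs (lower), with lines at NEAT1, MALAT1 and the class median. NEAT1 at 0.93 and MALAT1 at 0.28 lie in the upper tail of the coding genes, whose median is −1.91, and nearer to the long noncoding RNAs, whose median is −0.26.

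MALAT1 and NEAT1 did not keep a fixed proportion. There were 14.2 MALAT1 counts per NEAT1 count in the GM18505 control, 16.4 in the GM19193 control and 9.54 in that of GM19204, and 5.79, 12.1 and 8.27 under arsenite. The ratio was lower under arsenite in each line, but the values of the conditions overlapped. The mean log2 change was −0.65 ± 0.57 (SD, n = 3), and the exact sign-flip test gave p = 0.25, the smallest it can give. In T libraries alone the ratio of GM19204 went the other way, from 8.39 to 9.19.

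The other noncoding RNAs listed as nuclear lay mostly between MALAT1 and the coding genes. Where each of them resides in these cells was not measured. Of 14 listed, 12 were measured, with a median log2 fold change of −0.19 against −1.79 over all genes. None was called higher and 2 were called lower, against 29 and 138 of the 752 long noncoding RNAs and 1.12% and 74.1% of all genes. The 2 were TUG1 at −1.07 (edgeR adjusted p = 0.010) and MIR155HG, the host transcript of miR-155, at −0.78 (adjusted p = 0.048). JPX, from the X inactivation centre, had the highest value at 0.91 (SE 0.46, adjusted p = 0.060), with 82 counts in the arsenite culture of GM19193 and 14 to 23 in each of the 5 others. It was followed by FTX, of the same region, at 0.47. MIR17HG stood at 0.31, KCNQ1OT1, an imprinted antisense RNA, at 0.14, CYTOR at −0.05 and MIAT at −0.12. OIP5-AS1 had −0.27, PVT1 −0.27, DLEU2 −0.37 and MEG3 −0.79. With means of 10.8 to 301.5 counts per culture, these RNAs carried far less depth than MALAT1, with 1896.5. Relative to other genes, by TMM, 11 of the 12 were called higher, against 27.8% of all genes and 532 of the 752 long noncoding RNAs. RN7SK, RPPH1, RMRP and TERC, the 4 structural nuclear RNAs of another list, were not in the count table.

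Spliced hosts of small nucleolar RNAs, which are exported and reach ribosomes before decay, spread further down. Of 13 measured, 8 were called lower and none higher on the spike-in scale, with a median of −0.98. The shares over all genes were 74.1% and 1.12%, and of the 752 long noncoding RNAs 138 were called lower and 29 higher. With TMM the calls turned, with 9 higher, none lower and a median of 0.86. Long noncoding RNAs as a class did the same, with 532 of the 752 higher and 1 lower by TMM. Of all genes 27.8% were called higher and 26.6% lower with that scaling. GAS5, the deepest of them, stood at 0.17 (SE 0.36, edgeR adjusted p = 0.68), near MALAT1. SNHG12 and SNHG1 had 0.32 and 0.28. SNHG5 had −0.75 (adjusted p = 0.059) and SNHG29 fell, at −1.55. The lowest were SNHG7 and ZFAS1, which fell with values of −2.26 and −1.91. MALAT1 was exceeded by 1 of these hosts and NEAT1 by none.

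**Figure D5:**
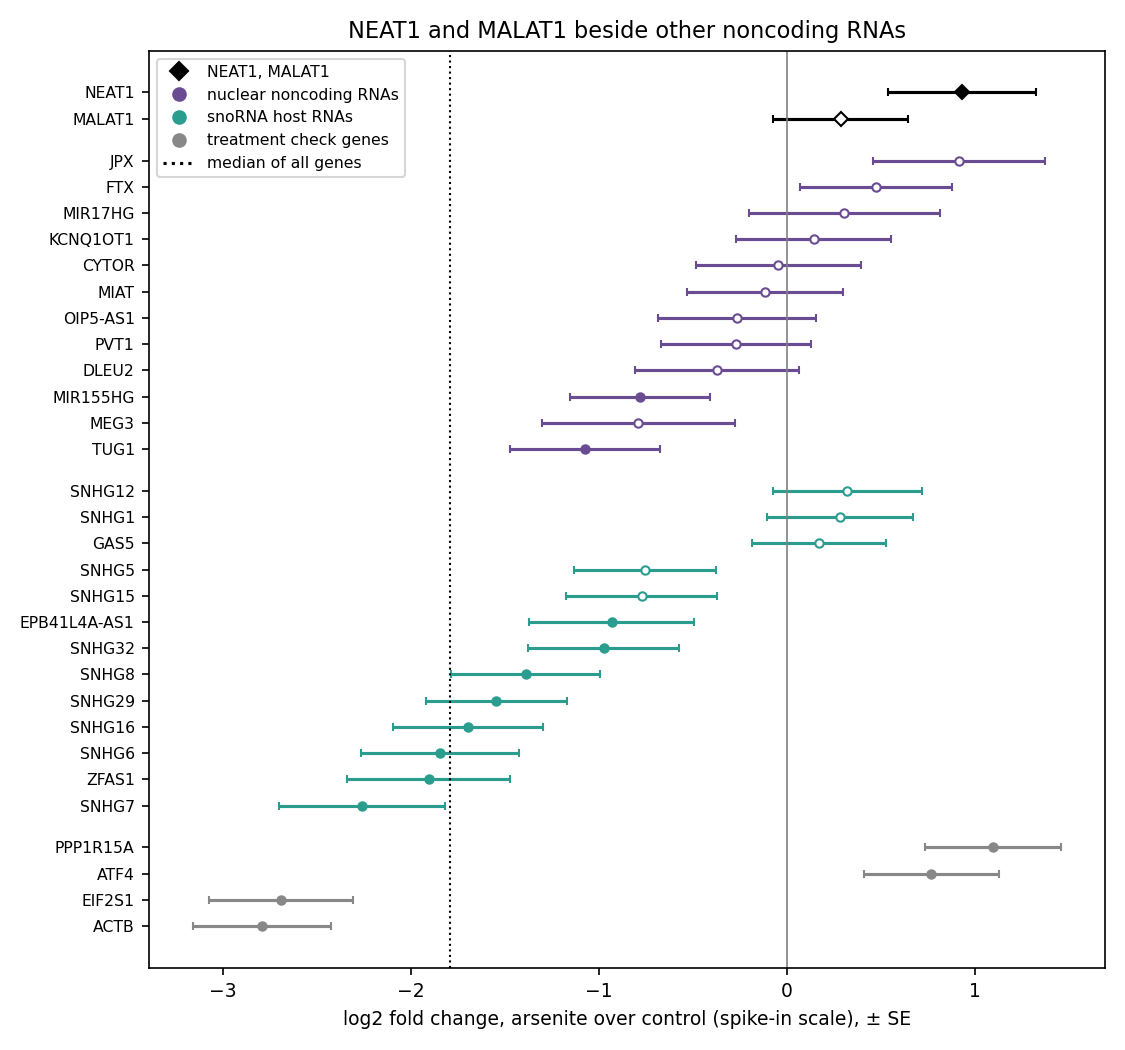
Log2 fold change on the spike-in scale, with its standard error, for NEAT1 and MALAT1. Beside them stand 12 other noncoding RNAs listed as nuclear, 13 small nucleolar RNA hosts and 4 treatment check genes. Filled symbols mark an adjusted p under 0.05, and the dotted line marks the median of all genes. NEAT1 at 0.93 and JPX at 0.91 stand highest among the noncoding RNAs, and the hosts reach down to −2.26.

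The mRNAs of the proteins that build the bodies of NEAT1 and MALAT1 were mostly called lower on the spike-in scale. Of 21 paraspeckle protein mRNAs measured, of 22 listed, 20 were called lower and none higher on the spike-in scale, with a median of −2.41. With TMM 14 were lower and 3 higher, with a median of −0.59. SFPQ and HNRNPK, RNA-binding proteins among those with the most counts, fell with values of −2.45 and −2.38. The falls were largest for NUDT21, a cleavage factor subunit that acts on the early NEAT1 end, at −3.11, and for RBMX at −3.01. AHDC1 fell less, at −1.18, and MATR3, a nuclear matrix protein, had −0.76 (edgeR adjusted p = 0.079).

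Of 21 nuclear speckle protein mRNAs, 20 were called lower and none higher, with a median of −2.15 on the spike-in scale. With TMM 13 were lower and 3 higher, SON and CLK1 among the latter, with a median of −0.33. SRRM2 and SON, which form the core of speckles, and SF3B1, a spliceosome subunit, were the deepest and fell with values of −2.12, −1.53 and −2.10. The falls were largest for THOC1, of the export complex, at −2.89 and for the splicing factor SRSF4 at −2.46. CLK1, a kinase of splicing factors, fell less, at −0.92, and SRSF1 had −0.51 (edgeR adjusted p = 0.30) on a mean of only 20 counts.

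Among mRNAs of factors that cut, modify or bind these RNAs, 16 were measured. Of these, 15 were called lower and none higher on the spike-in scale, with a median of −2.19, and with TMM 4 were lower and 1 higher, with a median of −0.36. ELAC2, the nuclease that trims the 3′ end of the tRNA-like small RNAs, fell, at −2.55, and the RNase P subunits RPP40 and RPP30 fell with values of −2.97 and −2.598. RPP14 had −0.73 (edgeR adjusted p = 0.17) on a mean of 11.5 counts. HNRNPC and YTHDC1, which bind MALAT1, fell with values of −2.56 and −1.75, and METTL14, of the methyltransferase that modifies it, with −1.27. For these 3 lists 20 of 21, 20 of 21 and 15 of 16 were called lower on the spike-in scale. That stands beside 8824 of the 10872 protein-coding genes and 74.1% of all genes. The TMM counts called lower stand beside 3235 of the protein-coding genes and 26.6% of all genes. Those called higher stand beside 2412 of the protein-coding genes and 27.8% of all genes.

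Genes next to NEAT1 and MALAT1 were mostly called lower on the spike-in scale. Of 15 measured within 250 kb, 13 were called lower and none higher, with a median of −2.17. Of all genes 74.1% and 1.12% were called so, and of the 10872 protein-coding genes 8824 and 90. With TMM 6 were lower and 4 higher, the latter being LTBP3, CAPN1-AS1, SLC25A45 and MAP3K11, with a median of −0.34. By that scaling 26.6% of all genes were called lower and 27.8% higher, so the 4 of 15 stand near the share over all genes. FRMD8, a FERM domain protein upstream of NEAT1, had −2.06. The protease CAPN1 had −2.72, the RNase H2 subunit RNASEH2C −2.64, ZNRD2 −2.53, the NF-kB subunit RELA −2.35, SIPA1 −2.25, DPF2 −2.24 and the acetyltransferase KAT5 −2.17. EHBP1L1, PCNX3, the kinase MAP3K11 and the carrier SLC25A45 had −1.84, −1.52, −1.18 and −0.90, and all of these passed the test. Those that did not pass were LTBP3, a TGF-beta binding protein, at 0.10 (edgeR adjusted p = 0.82) and CAPN1-AS1 at −0.54 (adjusted p = 0.33) on a mean of 10.2 counts. None of the 15 had a fold change above that of MALAT1.

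Between cell lines neither RNA passed the test. In an edgeR test of both line terms with TMM, 12.2% of all genes were called, while NEAT1 had an adjusted p of 0.090 and MALAT1 of 0.33. The order of NEAT1 changed with condition, with GM19204 highest in control and GM18505 highest under arsenite. With T libraries alone NEAT1 passed (adjusted p = 0.039).

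The T and U libraries did not differ in either RNA beyond the spread between cultures. The log2 ratio of T to U shares ranged from −0.46 to 0.46 for NEAT1 and from −0.10 to 0.12 for MALAT1 over the 6 cultures. NEAT1 was higher in T in 2 of 6 and MALAT1 in 3 of 6. The counting error of a single ratio was 0.17 to 0.34 for NEAT1 and 0.06 to 0.08 for MALAT1. In edgeR on the 12 libraries the difference was −0.04 (SE 0.12) for NEAT1 and −0.01 (SE 0.04) for MALAT1, both with an adjusted p of 1.0, and 0.0162% of genes were called, 2 of 12357, with 523 at an unadjusted p under 0.05. DESeq2 and limma were not run on this comparison.

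NEAT1 and MALAT1 were not each other's closest match across the 6 cultures. Their spike-scaled log2 values correlated at a Pearson r of 0.54, and among 8264 genes with a mean of at least 50 counts MALAT1 ranked 36 for NEAT1 and NEAT1 ranked 176 for MALAT1. The cultures share cell lines and spike-in scales, so r is a description of 6 points. The genes most like NEAT1 were DNAJB5, a heat shock protein of the J-domain family, at 0.88, JUN at 0.83, ATF4, the transcription factor of the integrated stress response, at 0.81, GPR65 at 0.80 and RNA5SP199, a 5S ribosomal RNA pseudogene, at 0.79. Of these, ATF4 and RNA5SP199 were called higher, at 0.77 (edgeR adjusted p = 0.044) and 0.84 (adjusted p = 0.042), and DNAJB5, JUN and GPR65 had 0.46, 0.48 and 0.33 without passing.

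The genes most like MALAT1 were REP15 at 0.95, EHD4-AS1 at 0.92, FOXP1 at 0.92, GAS5 at 0.90 and LINGO1 at 0.89. REP15 had 1084 counts in the arsenite culture of GM19193 and 4 to 16 in each of the 5 others, and FOXP1 had 196 there and 21 to 37 elsewhere. That culture also held the highest MALAT1 value, and the likeness of REP15 and FOXP1 to MALAT1 rests on it. GAS5 had a similar depth to MALAT1, with a mean of 1838 counts, and its counts ranged from 1331 to 2406.

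Genes with a known response to arsenite were read as a check of the labels. PPP1R15A, the phosphatase subunit that reverses eIF2 phosphorylation, rose by 1.10 (edgeR adjusted p = 0.0038), and ATF4 rose by 0.77, while EIF2S1, the eIF2 alpha subunit, and ACTB, beta-actin, fell with values of −2.69 and −2.79. All 8 B cell markers were present, at 13336 to 19917 summed CPM in control and 10847 to 15860 under arsenite. None of the T cell, monocyte and erythroid markers was in the table. Of 3 fibroblast markers, COL1A1 and COL1A2 were in the table, at 2.55 to 6.26 summed CPM in control and 11.5 to 103.3 under arsenite. COL1A2 had 239 counts in the arsenite culture of GM19193 and 10 to 20 in each of the 5 others. EPCAM, the 1 of 3 epithelial markers in the table, had 1.08 to 2.23 and 3.77 to 6.13. As shares, these low values moved in the direction of NEAT1 and MALAT1. On the spike-in scale COL1A1 had −0.03 (edgeR adjusted p = 0.96) and EPCAM −0.10 (adjusted p = 0.87). COL1A2 had 1.57 there (adjusted p = 0.0028). The part of these markers in the result was not tested.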

How the data were processed

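The authors trimmed adapters, poly(A) and the first 4 bases, removed reads that matched rRNA, tRNA or snoRNA, mapped the rest to GRCh38 with TopHat2 (up to 2 mismatches, unique reads only), counted them per gene of GENCODE release 37 with featureCounts of Subread, and deposited whole-number counts without normalization, leaving out genes with 0 in any library. Their tool versions were not given in the sources used here. Reads mapping to several places were lost. Here symbols, positions and transcripts came from GENCODE release 44 on GRCh38, printed sequences are those of that reference, and 12343 of 12357 identifiers matched. T and U counts were summed per culture and tested with edgeR 4.0.16 in R 4.3.3, two-sided, with treatment and cell line as terms. limma 3.58.1 (log2 of counts plus 0.25), DESeq2 1.42.0 and RUVg with 3 factors, written out from its description, were alternatives, as were other scalings, single library kinds, no block, each line left out, a floor of 10 on the mean count, and a pseudocount of 1. The limma fits, with and without RUVg, and an edgeR alternative took the 12 libraries as separate samples, with library kind as a further term. Figures used matplotlib 3.10.9 with Python 3.11.15. Cultures pair by cell line, and their deviations from the group means correlated across genes at 0.69 to 0.74 in every pair. The edgeR steps were tested on simulated counts. For the arsenite comparison on the spike-in scale, 74% of genes with a log2 change of 1 and all 50 with 2 were recovered, against 60% with −1 and 86% with −2. TMM recovered the same shares. The simulation changed 50 genes at each of these sizes and no others, with the scale known and no effect of cell line. It therefore did not test a fall of most genes or an error of the scale. Named genes were NEAT1 and MALAT1, every measured nuclear noncoding RNA of the list, neighbours within 250 kb, per list the 3 with the most counts and the 2 with the largest and smallest change, the 5 most like each RNA (some sex-linked genes left out) and 4 check genes. NEAT1, MALAT1 and the lists were chosen with earlier results of these data known. Some genes that the rule names are left out of the text.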

Additional observations from a re-analysis of the deposited data

Results flagged for a closer look

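The cell lines did not all move the same way in MALAT1 on the spike-in scale, with log2 changes of 0.29 in GM18505, of 0.60 in GM19193 and of −0.037 in GM19204. The difference between the lines was not tested, and the value in GM19204 was smaller than the standard error of its scale, 0.16.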

How the results depend on the processing

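NEAT1 kept its direction under every alternative of the arsenite comparison, but its call was lost in 4 of 17. These were no scaling (1.0, adjusted p = 0.073), T libraries alone (0.90, adjusted p = 0.070), the fit without the replicate block (0.89, adjusted p = 0.057) and the fit without GM18505, within a range of 0.60 to 1.32 when each line was left out. Leaving out the block changed no other call of the 2 RNAs. MALAT1 was called higher under 4 of 17, namely TMM (2.10), DESeq2 with its own size factors (2.10), limma with TMM (2.11) and limma after RUVg (0.36). Under the first 3 of these the scale itself assumes that the typical gene does not change. The NEAT1 calls under those 3 rest on the same assumption. The limma fits and an edgeR alternative that kept the NEAT1 call took T and U of a culture as independent samples. All 4 losses of the NEAT1 call fell among the remaining fits. There the call was kept with all 16 oligomers, DESeq2 on the spike-in scale, U libraries alone and a floor on the mean count. It was also kept without GM19193 and without GM19204. Relative to other genes, both RNAs kept their calls under all 10 alternatives. NEAT1 differed between cell lines with T libraries alone (adjusted p = 0.039). The near-zero T against U difference changed sign for MALAT1 on the spike-in scale (0.027), and ranged from −0.14 to 0.055 for NEAT1 and from −0.045 to 0.031 for MALAT1 when each line was left out.

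Genes called lower numbered 9162, against 3290 with TMM, 2673 with DESeq2's own size factors and 3556 with limma and TMM. Genes called higher numbered 138, against 84 with no scaling, 213 with all 16 oligomers, 3433 with TMM, 88 with DESeq2 on the spike-in scale, 2843 with its own size factors, 272 from 12 separate libraries, 79 without the replicate block, and 58 to 149 when each line was left out. In limma they numbered 226 without normalization, 3862 with TMM, 367 after RUVg and 234 with a pseudocount of 1. The causes were not tested. The NEAT1 level per kb of the short region, an alternative chosen after seeing the data, was 5.81 in control against 0.954 over the whole gene, and 36.7 against 6.04 under arsenite. Depth limits NEAT1, with 86 counts in its lowest culture, more than MALAT1, with 1410, and it limits the low members of the lists. With 3 lines, the exact tests could not pass 0.05.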
